A study of Mus musculus with 8 samples.

Results

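The tripartite motif (TRIM) genes encode a large family of proteins, most of them ubiquitin ligases, and their expression was examined in mouse liver early after an inflammatory stimulus. Members were the genes whose symbol is Trim followed by a number and at most 1 letter, and 63 of the 22180 genes measured met this rule. Liver RNA came from 8 male wild-type mice, 4 given PBS and 4 given recombinant mouse IL1B (0.5 µg per mouse) into the peritoneum for 3 h, and each liver was hybridized to its own Affymetrix MoGene 2.0 ST array. The series design gives an age of 7 weeks at purchase, followed by 2 weeks of acclimation, whereas the methods give a range of ages that starts there. The series design gives C57BL/6J for all of them, but the strain label reads C57BL/6J on the PBS samples and C57BL/6 x CBA on the IL1B samples, and by these labels a strain difference and the treatment cannot be told apart.

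Most TRIM proteins carry a RING domain, which recruits ubiquitin-loaded E2 enzymes, and it is followed by B-boxes and a coiled coil that lets the proteins assemble. Some members, such as Trim44, lack the RING domain. The end of the protein sets the target: a PRY-SPRY domain in many antiviral members, NHL repeats in Trim2, Trim3, Trim32 and Trim71, and a PHD finger with a bromodomain in the chromatin regulators Trim24, Trim28, Trim33 and Trim66. Several members are known to tune innate immune signalling, and in the mouse a set of antiviral members lies close together on chromosome 7, where the Trim12, Trim30 and Trim34 genes have been duplicated.

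Because the chromosome 7 set held 4 of the 8 genes called below, its promoters were searched for the core of the interferon-stimulated response element (ISRE), to which interferon regulatory factors bind. The core was spelled GAAANNGAAA and read on both strands in RefSeq promoters of the build GRCm38.p6, from 250 bases before to 50 after the gene start. A promoter was given for 49 of the 63 members, including all 10 measured genes of the chromosome 7 set and 7 of the 8 called genes (all but Trim8). The following windows are shown because they carry these matches; they run 5′ to 3′ on the strand of the gene, with the bases of the ISRE core in capitals.
Trim12a, chr7:104315466-104315530, minus strand: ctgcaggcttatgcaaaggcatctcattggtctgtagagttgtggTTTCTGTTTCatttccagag
Trim12c, chr7:104353349-104353423, minus strand: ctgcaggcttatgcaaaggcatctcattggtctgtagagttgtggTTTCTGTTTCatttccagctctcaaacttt
Trim21, chr7:102565453-102565514, minus strand: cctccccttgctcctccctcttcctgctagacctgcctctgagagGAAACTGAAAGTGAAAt
Trim30a, chr7:104465200-104465274, minus strand: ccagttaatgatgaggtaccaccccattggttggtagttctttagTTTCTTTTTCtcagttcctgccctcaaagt
Trim30d, chr7:104507861-104507935, minus strand: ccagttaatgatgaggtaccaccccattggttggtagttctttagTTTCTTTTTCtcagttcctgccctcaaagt
Trim34a, chr7:104244422-104244486, plus strand: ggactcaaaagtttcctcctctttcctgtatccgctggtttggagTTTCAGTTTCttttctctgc

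The Trim30a and Trim30d windows were identical over 75 of 75 bases, and those of Trim12a and Trim12c over 63 of 65. Trim21 carried a pair of overlapping matches, and Trim30a had a further match at another annotated start. The core was found in 6 of 10 promoters of the chromosome 7 set and in 2 of the 39 other members with a promoter (Trim2 and Trim26), against 3.99% of all genes with a promoter. Among the called genes it was found in 3 of 7 (Trim12a, Trim30a and Trim30d). It was also found in uncalled genes of the chromosome 7 set (Trim12c, Trim21 and Trim34a). The matches of Trim12a, Trim21, Trim34a and Trim2 lay after the gene start, as did the further match of Trim30a. Those of Trim12c, Trim30d and Trim26 lay before it, as did the match shown for Trim30a. Trim30b, the called gene with the largest fitted difference but at background in the PBS group, had no match. A kappaB motif, the type of site bound by NF-kappaB, was found in 9.55% of all genes with a promoter, in 5 of the 49 members and in 0 of the 7 called genes. At such a share, 7 genes are too few for 0 matches to be read as a lack of such motifs. Paralogs share sequence, so the matches are not independent of each other, and a match is a description of letters and not a binding site.

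At 3 h, 8 members were higher in the IL1B livers and 0 were lower (limma, adjusted p of 0.05 or less over all genes). The genes were Trim30b, Trim8, Trim12a, Trim30d, Trim24, Trim30a, Trim39 and Trim56, with fitted log2 fold changes from 0.79 to 2.38. Of these, Trim30a and Trim30b were at background in the PBS group (described below), so the size of their change is uncertain. The 8 genes made up 12.7% of members, beside 7.19% of all genes called higher and 5.32% called lower. At an unadjusted p under 0.05, limma gave 15 members higher and 3 lower, beside 13.1% and 13.8% of all genes. The IL1B arrays lay wholly above the PBS arrays for 12 members and wholly below for 1, compared with 9.81% and 9.14% of all genes. The median log2 fold change was 0.00 over the 63 members and -0.06 over all genes.

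A gene was taken to be at background in a group when every array of that group lay at or below its own highest background control row, which ranged from 6.65 to 7.08 on the log2 scale. By this measure, applied to the value averaged over a gene's features, 37 members were at background in both groups, 4 (Trim30a, Trim30b, Trim30c and Trim34a) in the PBS group alone, and 22 in neither. Trim7 and Trim34a each had 2 features, of which the brighter was above background in some arrays of both groups. Counting a gene as at background only where every feature of its own was, 36 members were at background in both groups, 3 in the PBS group alone and 24 in neither. An overall mean above 6.73, the mean of the highest background rows, was reached by 20 members, and 6 of these were called higher and 0 lower, beside 15.8% and 9.39% of the 8761 genes with such a mean. Their median log2 fold change was 0.24, compared with 0.04 for those genes. Trim5, Trim34b, Trim60, Trim61 and Trim65 were named only on features shared with another gene and have no value of their own here.

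**Figure D1:**
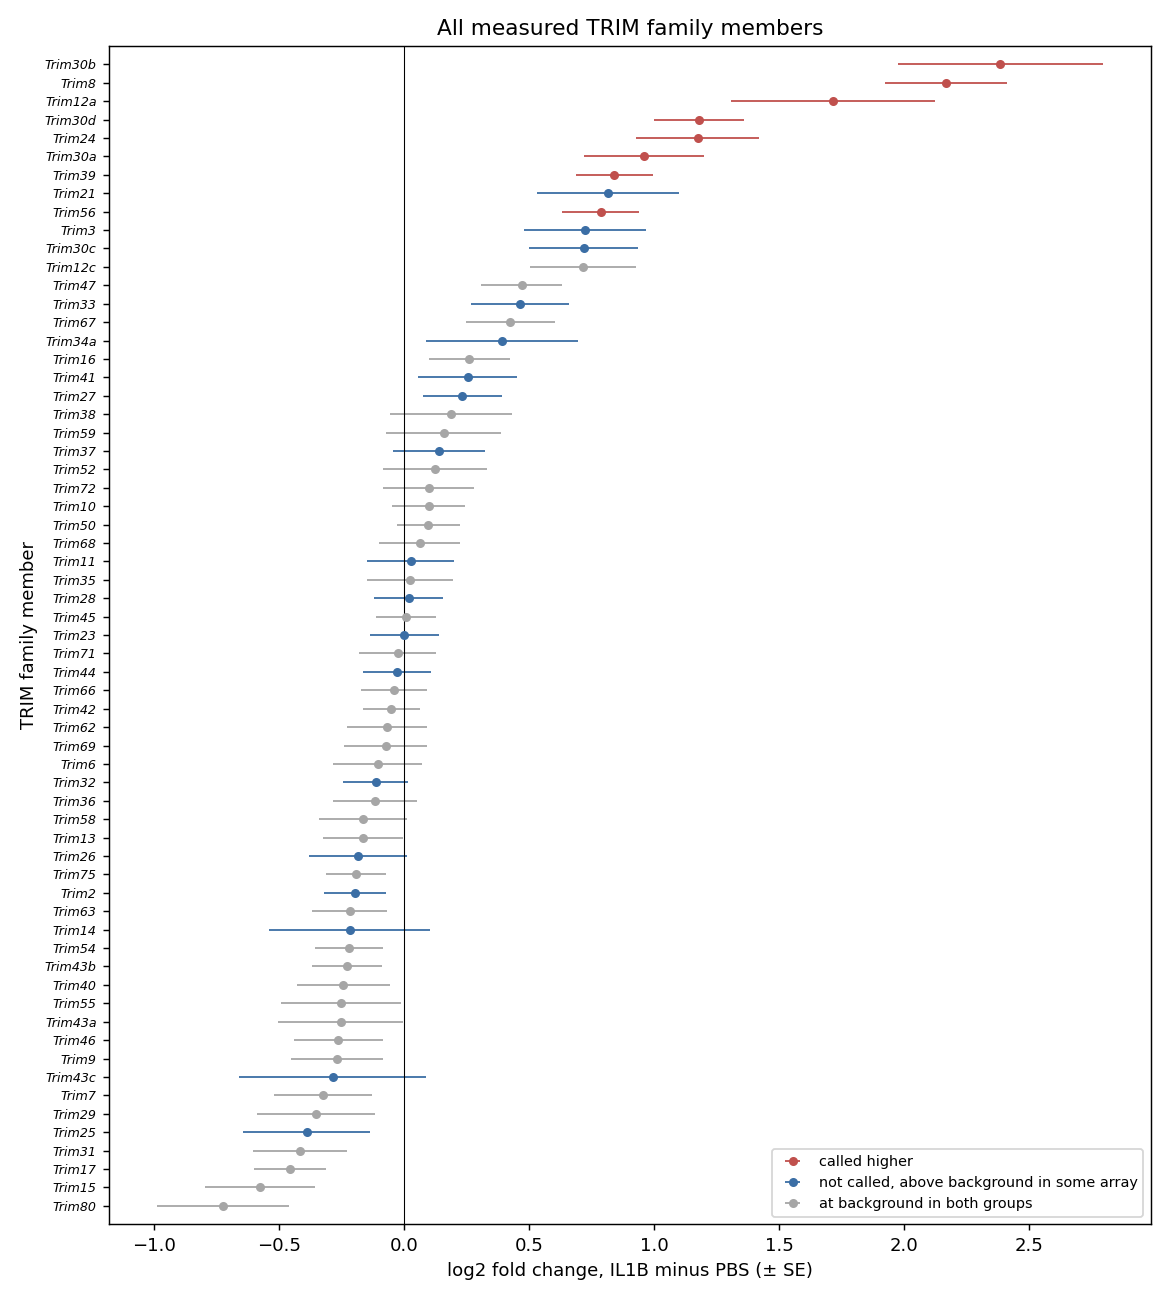
Log2 fold change (IL1B minus PBS, 4 arrays a group) with its SE for each of the 63 members, ordered by size. The 8 called genes (red) lie between 0.79 and 2.38, and the 37 members whose averaged value was at background in both groups (grey) lie between -0.73 and 0.71. Of the called genes, Trim30b (2.38) and Trim30a were at background in the PBS group.

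The signalling member Trim8, which in human cells has been described to act on the kinase TAK1 downstream of TNF and IL1 receptors, had the smallest adjusted p of the members defined by symbol. Its log2 values were 10.25, 9.77, 10.98 and 10.17 in PBS mice 1 to 4, and 12.74, 12.48, 12.22 and 12.40 in IL1B mice 1 to 4. The groups did not overlap and all 8 arrays were above background. The log2 fold change was 2.17 ± 0.24 (SE, n = 4 per group, limma adjusted p = 0.000633), or 4.49-fold.

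Trim56, which promotes signalling from cytosolic DNA through STING, rose less. Its PBS values were 7.62, 7.99, 7.71 and 8.0, and its IL1B values 8.73, 8.39, 8.52 and 8.81. Every IL1B array was above every PBS array, with a log2 fold change of 0.79 ± 0.15 (limma adjusted p = 0.0104), or 1.72-fold. Of the 12 measured members of the antiviral signalling group, these 2 rose, 0 fell and 5 were at background in both groups (Trim13, Trim31, Trim38, Trim40 and Trim69). Over all genes 7.19% were called higher, and 15.8% of those with an overall mean above background.

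Other expressed members of the signalling group did not pass the test. Trim25, the ligase that modifies the RNA sensor RIG-I in human cells, had PBS values of 12.25, 12.79, 13.37 and 13.41 and IL1B values of 12.56, 12.30, 12.66 and 12.74. Its difference was -0.39 ± 0.25 (limma adjusted p = 0.371), and the groups overlapped. Trim23, which carries an additional GTPase domain, differed by 0.00 with a 95% interval of -0.31 to 0.31, and Trim26 by -0.18 with an interval of -0.62 to 0.25. Trim27 was measured by 2 features, of which the brighter went from 9.66 to 10.14 and the dimmer stayed at background (5.49 and 5.48), and its averaged difference of 0.23 ± 0.16 was not called (limma adjusted p = 0.397).

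In the chromosome 7 set, 4 of 10 measured genes were called higher and 0 lower, beside 7.19% and 5.32% of all genes. Of genes with an overall mean above background, 15.8% were called higher and 9.39% lower. Among the called genes of the set, Trim30a and Trim30b were at background in the PBS group. Whether the probes tell these 2 and their paralog Trim30d apart was not tested, so their calls may not be separate. The median log2 fold change of the set was 0.77, beside -0.06 over all genes, and 3 of its genes were at background in both groups. Trim30d, a paralog of Trim30a, was higher in every IL1B mouse than in any PBS mouse. Its PBS values were 7.69, 7.82, 8.20 and 7.96, and its IL1B values 8.79, 8.90, 9.38 and 9.31, above background in every array and without overlap. The log2 fold change was 1.18 ± 0.18 (limma adjusted p = 0.00313), or 2.26-fold.

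Trim12a, a mouse relative of the primate retroviral restriction factor TRIM5, had PBS values of 8.85, 8.57, 8.61 and 7.96 and IL1B values of 9.49, 9.43, 11.29 and 10.64. All IL1B arrays were above the PBS arrays, but mice 3 and 4 were more than a log2 unit above mice 1 and 2. The log2 fold change was 1.72 ± 0.41 (limma adjusted p = 0.0237), or 3.28-fold. The call was lost when IL1B mouse 4, PBS mouse 3 or PBS mouse 4 was left out, with differences of 1.36 to 1.98 over all 8 such fits.

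Trim30b was at background in all PBS arrays (4.56, 5.15, 5.90 and 4.23) and above it in 3 of 4 IL1B arrays (8.05, 7.74, 6.55 and 7.03). The fitted log2 fold change was 2.38 ± 0.41 (limma adjusted p = 0.0057). The mean of its IL1B values was 0.55 log2 units above the mean of the highest background rows of the PBS arrays.

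Trim30a, which in mouse macrophages restrains Toll-like receptor signalling to NF-kappaB by acting on TAB2 and TAB3, lay at 5.54, 5.69, 5.36 and 5.72 in PBS and at 6.85, 6.94, 6.56 and 5.80 in IL1B. Its IL1B mean differed by -0.26 log2 units from the mean of the highest background rows of the PBS arrays. Trim30a exceeded background in IL1B mice 1 and 2 alone, so no fold is given for its log2 difference of 0.96 ± 0.24 (limma adjusted p = 0.0297). In 7 of 8 fits with an array removed this call no longer held (all but the fit without IL1B mouse 4), with differences of 0.83 to 1.21.

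The Trim30 genes are close paralogs, and whether the probes of each feature tell them apart was not tested, so their separate values are uncertain. In the same set, Trim21, the cytosolic receptor for antibody-coated virus, had PBS values of 7.99, 7.57, 8.07 and 7.43 and IL1B values of 8.09, 8.07, 9.06 and 9.11. The groups touched without overlapping, and the difference of 0.82 ± 0.28 was not called (limma adjusted p = 0.0967). Neither Trim30c (0.72 ± 0.22, limma adjusted p = 0.0606) nor Trim34a (0.39 ± 0.30, limma adjusted p = 0.462) passed the test. Trim30c was at background in PBS. Trim34a was at background in PBS by its average alone: its brighter feature lay at 7.07, 7.21, 7.48 and 6.46 in PBS and 7.66, 6.93, 8.18 and 7.50 in IL1B, above background in 2 PBS arrays and all 4 IL1B arrays. A feature shared by Trim34a and Trim34b was above background in all 8 arrays (7.13 to 8.87 in PBS, 8.14 to 9.12 in IL1B), and its groups overlapped.

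Trim6 and Trim68 were at background in both groups, and so was the feature of Trim12c alone. Trim12c shares 2 further features with Trim5. The one was at background in all PBS arrays (6.11 to 6.48) and above it in all 4 IL1B arrays (6.78 to 7.17), and the other was above background in 2 PBS arrays and 1 IL1B array, with overlapping groups (6.43 to 6.90 and 6.14 to 6.82).

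**Figure D2:**
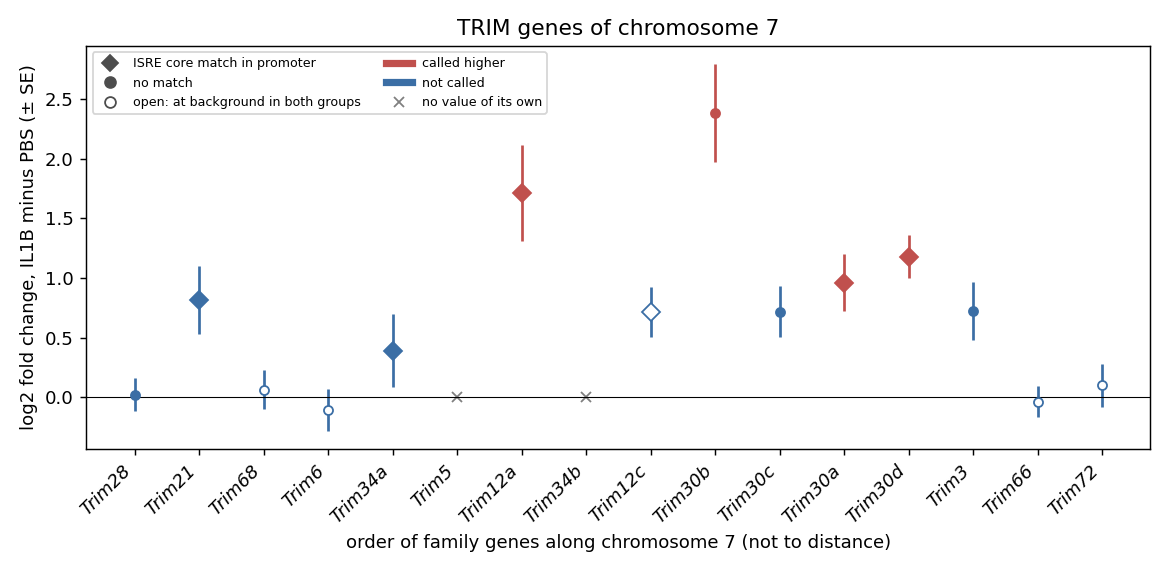
Log2 fold change (IL1B minus PBS) with SE for the family genes of chromosome 7, in their order along the chromosome and not to distance. Along the chromosome the genes called higher fall between Trim12a and Trim30d, with the uncalled Trim12c and Trim30c among them. Their log2 fold changes run from 0.96 (Trim30a) to 2.38 (Trim30b), both of which were at background in the PBS group. Trim28, Trim66 and Trim72, at the ends, lie between -0.04 and 0.10, and the uncalled Trim21 and Trim3, next to them, at 0.82 and 0.72.

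Among the chromatin regulators, Trim24 (TIF1-alpha), a co-regulator of nuclear receptors such as the retinoic acid receptor in mouse liver, rose 2.26-fold. It had PBS values of 8.77, 8.91, 9.52 and 8.69 and IL1B values of 9.86, 10.27, 9.79 and 10.67. The groups did not overlap, and the log2 fold change was 1.17 ± 0.25 (limma adjusted p = 0.014). Trim28, the KRAB zinc finger co-repressor, lay between 9.65 and 10.08 in all arrays and differed by 0.02 with a 95% interval of -0.29 to 0.33. Trim33, which acts with Smad proteins, differed by 0.46 ± 0.20 and was not called (limma adjusted p = 0.165), and Trim66 was at background.

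Outside these groups, Trim39, a ubiquitin ligase encoded in the MHC region of chromosome 17 and linked in human cells to apoptosis through MOAP1, rose 1.79-fold. Its PBS values were 7.43, 7.30, 7.25 and 7.54, and its IL1B values were 8.20, 8.54, 7.95 and 8.19, without overlap. The log2 fold change was 0.84 ± 0.15 (limma adjusted p = 0.00753). Trim3, of the NHL group, was at 7.78, 7.67, 8.10 and 7.70 in PBS and at 8.30, 7.92, 8.88 and 9.04 in IL1B. Its groups overlapped, and the difference of 0.72 ± 0.24 was not called (limma adjusted p = 0.0889).

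Other members above background were not called. Trim44, a member without a RING domain, lay between 11.02 and 11.43 in all arrays and differed by -0.03 with a 95% interval of -0.34 to 0.28. Trim37 differed by 0.14 with an interval of -0.27 to 0.55. The muscle members (Trim54, Trim55, Trim63 and Trim72), the cytoskeletal members (Trim9, Trim36, Trim42, Trim46 and Trim67), Trim10 and Trim58, and Trim16, Trim17 and Trim50 were all at background in both groups. So were Trim45 and Trim71 of the NHL and filamin-domain group, and Trim15, Trim29, Trim35, Trim43a, Trim43b, Trim47, Trim52, Trim59, Trim62, Trim75 and Trim80, by the features that name them alone. The brighter of the features of Trim7 exceeded background in 3 PBS and 2 IL1B arrays (means of 7.06 and 6.64), and its averaged difference of -0.33 was not called. Trim2, Trim11, Trim14, Trim32, Trim41 and Trim43c were above background in at least 1 array, were not called and had differences between -0.29 and 0.25.

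**Figure D3:**
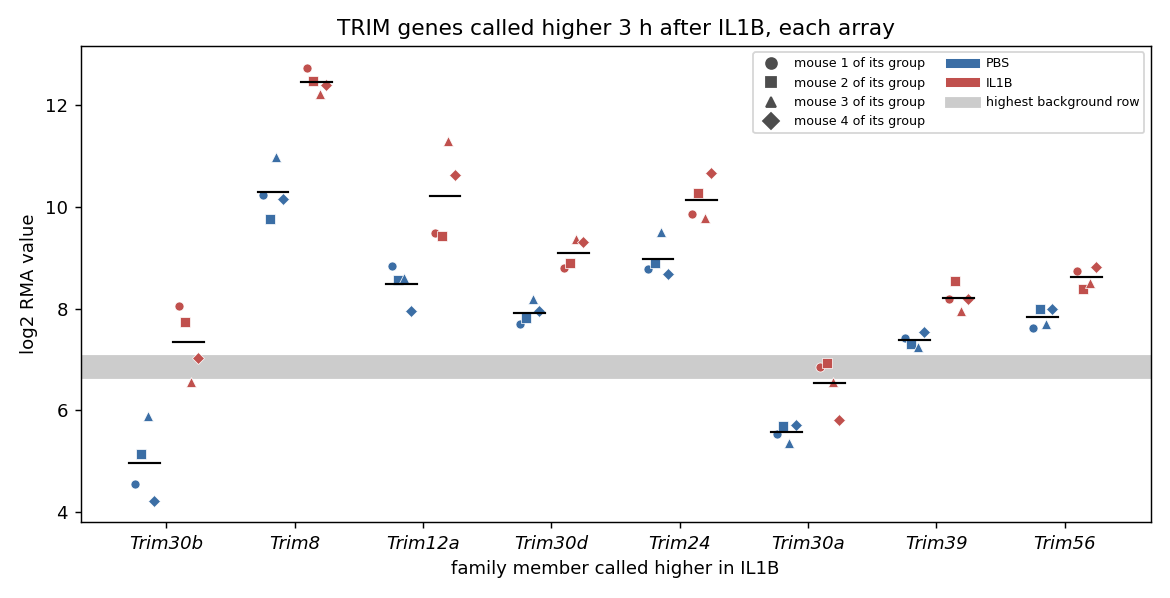
Log2 RMA value (vertical axis) in each array for the 8 called genes, PBS in blue and IL1B in red, with the group mean as a black line, marker shape for the mouse number and the range of highest background rows in grey. The red points lie above the blue points for every gene, and Trim30a and Trim30b start below the grey band.

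The IL1B arrays were not alike. The mean of 8 neutrophil markers was 11.01 and 11.19 in IL1B mice 1 and 2 but 7.72 and 7.55 in mice 3 and 4, and it ranged from 4.70 to 5.33 in PBS, where 7 of the markers were at background. All 8 neutrophil markers and 3 of 5 monocyte markers were called higher (limma), and the monocyte mean was 10.27 and 11.39 in mice 1 and 2 and 7.03 and 7.42 in mice 3 and 4. The Kupffer cell mean showed the same split (13.33 and 12.61 against 10.57 and 9.99), with 9.95 to 11.22 in PBS and 0 of 8 markers called. Of 8 sinusoidal endothelial markers, 4 were called lower (Kdr at -2.47, Fcgr2b at -0.98, Clec4g at -0.74 and Oit3 at -0.65 on the log2 scale) and 1 higher (Lyve1 at 3.18). Of 7 stellate cell markers 2 were called lower (Lrat at -0.88 and Colec11 at -1.07), and of 4 measured cholangiocyte markers 1 was called higher (Sox9 at 0.92). In whole liver, fewer cells of a type and less RNA per cell cannot be told apart.

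Family members varied with this split in both directions. Trim30b and Trim30a were higher in IL1B mice 1 and 2, whereas Trim12a, Trim21, Trim3, Trim34a and Trim30d were higher on average in mice 3 and 4. With IL1B mice 1 and 2 left out, the log2 difference was 1.83 for Trim30b, 2.02 for Trim8, 2.47 for Trim12a and 1.43 for Trim30d, all still called (limma). In that fit Trim24 (1.26, limma adjusted p = 0.0545), Trim30a (0.60, limma adjusted p = 0.189) and Trim39 (0.69, limma adjusted p = 0.0531) lost the call. Trim21 (1.32, limma adjusted p = 0.0124) and Trim3 (1.15, limma adjusted p = 0.0103) gained it.

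With IL1B mice 3 and 4 left out instead, the difference was 2.94 for Trim30b, 2.32 for Trim8, 0.96 for Trim12a and 0.93 for Trim30d, and all were called. Trim56 lost the call (0.74, limma adjusted p = 0.0504), and Trim21 (0.31) and Trim3 (0.30) were not called. Each of the reduced fits called 7 members higher and 0 lower, and the share of all genes called in them is not given here. The part of these cell types in these differences was not tested.

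**Figure D4:**
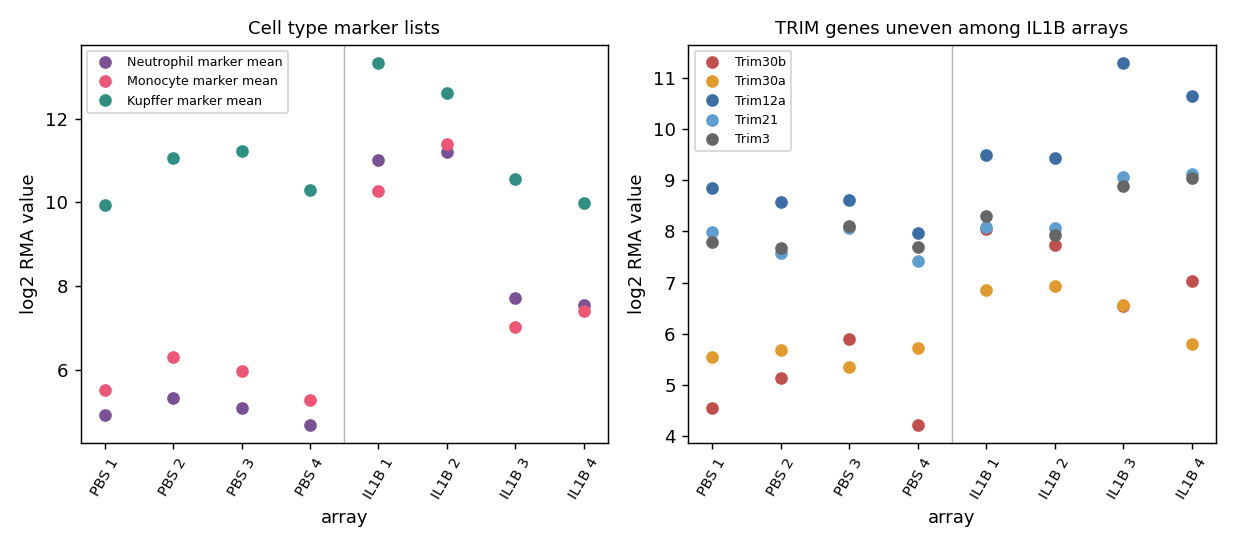
Log2 RMA value in each array for the mean of the neutrophil, monocyte and Kupffer cell marker lists (left) and for 5 TRIM genes (right), with a grey line between the PBS and IL1B arrays. The neutrophil mean is 11.01 and 11.19 in IL1B mice 1 and 2 and 7.72 and 7.55 in mice 3 and 4, and Trim12a is higher in mice 3 and 4 (11.29 and 10.64).

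The hepatocyte genes Alb, Ttr, Cyp2e1 and Fgb stood at the ceiling of 19.93 in every array, where no change can be read. Markers of B cells, T and NK cells and plasmacytoid dendritic cells were at background in both groups, as was the 1 measured erythroid marker. Of 4 measured B cell markers 2 were called lower (limma), but at background such differences cannot be read as changes in level. The erythroid marker was at 6.02 and 5.70 in IL1B mice 1 and 2 and at 4.35 and 3.93 in mice 3 and 4. Array medians ran from 5.64 to 5.76, and pairs of arrays correlated between 0.961 and 0.984 over features.

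The routes in which TRIM proteins act were examined with 5 further lists, described by their counts in the limma fit. Beside these counts stand 7.19% of all genes called higher and 5.32% called lower. Of genes with an overall mean above background, 15.8% were called higher and 9.39% lower. The lists were not tested as sets. Of 10 genes of TRIM type or related to it, whose symbols fall outside the rule for members, 1 rose, 0 fell and 6 were at background. The gene that rose was Mid1, a microtubule-bound TRIM-type ligase, by 2.92 ± 0.22 on the log2 scale (limma adjusted p = 6.99e-05). The brightest feature of Mid1 alone gave 4.32 (limma adjusted p = 4.14e-06). Of 14 measured genes of RNA and DNA sensing, 7 rose and 0 fell, with a median of 0.48. They ranged from Ikbke (6.00 ± 0.41), a kinase of interferon regulatory factors, and its relative Tbk1 (1.87 ± 0.19) to Ticam1 (0.81 ± 0.15), an adaptor of Toll-like receptors, and the RNA sensor Ifih1 (0.73 ± 0.19), whose call was lost in 6 of 8 fits with an array left out.

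Of 15 measured genes between the IL1 receptor and NF-kappaB, 5 rose and 2 fell (median 0.38). Il1r1, the receptor itself, rose by 5.22 ± 0.21 and its adaptor Myd88 by 2.32 ± 0.22, while the kinase Irak2 (-0.85 ± 0.19) and the co-receptor Il1rap (-0.78 ± 0.16) fell. Of 13 measured ubiquitin E1 and E2 enzymes, which act ahead of the RING ligases, 3 rose and 1 fell (median 0.29). Ube2l6, an E2 also used for ISG15, rose by 0.90 ± 0.14 and Uba6 by 0.84 ± 0.23, Ube2d3 rose by 0.44 ± 0.12, and Ube2e3 fell by 0.50. With each array left out in turn, the call was lost in 8 of 8 fits for Ube2d3, in 6 for Uba6 and in 5 for Ube2e3. Of 14 partners of Trim24, Trim28 and Trim33 in chromatin, 0 rose and 1 fell, the remodeller Chd3 (-1.15 ± 0.17), and the median was 0.00.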

How the data were processed

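Liver RNA from 4 PBS and 4 IL1B mice was measured on Affymetrix MoGene 2.0 ST arrays. In the deposited table each value is a log2 RMA value. The authors ran Affymetrix Power Tools within Galaxy, with GC correction where available, intensity scaling and RMA; the sources used here do not give its version. This method normalizes between arrays, so a global shift between groups would be partly removed, and values end at a ceiling of 19.93.

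Of 41345 features, 23521 had 1 gene symbol in the platform annotation, 1820 several and 16004 none. Features with 1 symbol were averaged to 22180 genes, and the 63 members came from 68 features. Samples were grouped by title. The test was limma's moderated fit (lmFit and eBayes with group as the factor; limma 3.58.1 under R 4.3.3), with Benjamini-Hochberg adjustment over all genes and a call at adjusted p of 0.05 or less. Background was set by 23 background control rows per array. The code was tested on simulated data. The number of arrays limits the precision.

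All called members are given in full. Of the uncalled members above background, those named are the ones among the 10 members with the highest mean value and the 6 with the largest difference. Trim7, Trim27, Trim12c, the shared features and genes named for a count fell outside this rule and were chosen after their values were seen. From each further list the 2 highest and 2 lowest called genes are named. Members, lists and tests were chosen with earlier results of these data known. Alternatives were other scalings, a filter on dim genes, the brightest feature of each gene, other eBayes settings, array weights, a replicate block, other thresholds and leaving out arrays.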

Additional observations from a re-analysis of the deposited data

Results flagged for a closer look

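Among 38 groups of 4 arrays tested for a sample far from the others, 2 stood out, where chance gives about 1 in 20. Trim30c was at 6.76 in IL1B mouse 1, against 5.81 to 5.94 in the other IL1B mice. Trim44 was at 11.02 in PBS mouse 3, against 11.30 to 11.33 in the other PBS mice. A feature that names both Trim12c and Trim5, and so was used for neither, was higher in IL1B by 0.72 on the log2 scale (PBS 6.11 to 6.48, IL1B 6.78 to 7.17), without overlap. Another feature with the same names differed by -0.06, and its groups overlapped.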

How the results depend on the processing

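The count of 8 members called higher became 4 at adjusted p 0.01 and 13 at 0.15, the cutoff of the study, and was 6 to 10 under the other settings (6 to 8 with each array left out in turn). The shares of all genes given above belong to the main fit alone, so the counts under other settings cannot be set against them. The count called lower was 0, became 3 at 0.15 and ran from 0 to 1 with an array left out (Trim15 without IL1B mouse 1, Trim17 without IL1B mouse 2, both at background). A filter on dim genes left Trim30a and Trim30b untested and called 6. Genes of the further lists called higher numbered 16 (11 to 14 with an array left out), and those called lower 4, which became 1 at adjusted p 0.01, 1 with IL1B mice 1 and 2 left out and 2 to 4 with an array left out. Members at background in both groups numbered 37, and 27 against the median background row.

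The replicate block called 10 members higher, adding Trim12c and Trim30c. Mice with the same number had correlated deviations of -0.073, 0.223, 0.052 and 0.122, so the numbers were not taken to pair the mice.

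Among members above background the sign turned for uncalled members, most with a difference near 0 (Trim34a, at 0.39, was farthest from it): under quantile normalization Trim11 (-0.091), Trim28 (-0.13), Trim37 (-0.011) and Trim23 (-0.16), under median centring Trim44 (0.0027), and under array weights Trim28 (-0.014). With IL1B mice 1 and 2 left out it turned for Trim28 (-0.12) and Trim26 (0.0068), and with IL1B mice 3 and 4 left out for Trim34a (-0.016), Trim14 (0.28), Trim11 (-0.074), Trim44 (0.074) and Trim23 (-0.13). The fits leaving out these pairs were chosen after seeing the data. With an array left out, Trim11 ran from -0.087 to 0.16, Trim14 from -0.50 to 0.039, Trim44 from -0.10 to 0.020, Trim28 from -0.044 to 0.098 and Trim23 from -0.053 to 0.092. Signal over background limits the members at background, whose differences cannot be read as changes in level.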
